A study of Homo sapiens with 6 samples.

Results

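The costimulatory receptors of the tumour necrosis factor (TNF) superfamily and their T-cell ligands are described here as a set of 10 genes out of 33644 in the table analysed. The genes were taken by name: the receptor genes TNFRSF1B, TNFRSF4, TNFRSF8, TNFRSF9, TNFRSF14, TNFRSF18, TNFRSF25 and CD27, and the ligand genes CD70 and CD40LG. All 10 were found through their Ensembl identifiers, and 9 of them were among the 13957 genes with an adjusted p-value. The exception was TNFRSF14.

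Receptors of this family are membrane proteins with cysteine-rich repeats outside the cell and a short tail inside it. A trimeric ligand on a neighbouring cell clusters them, the tails recruit TRAF adaptors, and NF-kB and MAP kinases are switched on. On T cells they act after the antigen receptor and CD28, sustaining division, survival and memory, and several appear on the surface only after activation. CD70 and CD40LG work in the other direction, as ligands that activated T cells show to partner cells.

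The labels give 6 samples at day 0 in 2 groups of 3, HEK293T cells (a human embryonic kidney line, genotype WT) and the same line with the genotype alt-LAMA3 KO, both grown in DMEM with fetal bovine serum. How the knockout was made, and whether it is a single clone or the samples are separate cultures, is not given in the sources used here, so the p-values may reflect only the spread of technical repeats. The table gives each gene 1 mean normalized count over all libraries and 1 log2 fold change (shortened to log2 change below) between groups that its header does not name. It has no value per sample, so the levels of single libraries, and whether groups overlap, cannot be shown. Below, a positive change means a higher level in the group called the numerator group, and the other is the denominator group. Neither is equated with WT or alt-LAMA3 KO, and whether the contrast concerns the knockout is not known.

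The table did not look like RNA of the labelled cells. In the authors' deposited table, 10 of the 12 T-cell markers present had a mean normalized count of at least 72.0 (5 per 1000000 of the summed means), the highest being 27074 for CD8A. Of 16 HEK293 markers present, 3 reached that level, led by VIM, a filament protein of many cell types, at 54717, and 4 were listed at 0. FOXP3, which defines regulatory T cells, and MS4A1 and PAX5 of B cells were also listed at 0. The highest mean of the regulatory T-cell list was 27989, for IL2RA. Those of the remaining lists were 1028 for CD33 (myeloid), 779 for NKG7 (natural killer) and 26.8 for CD79B (B cells). The lowest means repeated at 9 values, each shared by many genes, as happens when 1 read falls in 1 library. Genes at 3 of these values had positive changes, at 3 negative ones and at 3 a change of 0, so a mean may include libraries in neither group. On that reading a mean would cover 9 libraries, where the labels give 6 samples.

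Of the 4 members that passed the threshold of an adjusted p of 0.05, 3 have a promoter in the RefSeq table used (GRCh38.p14). Their promoters are shown as a description of the members that passed. NF-kB lies downstream of these receptors, and whether it acts on these promoters was not tested. Each runs 5′ to 3′ from 250 bases before the annotated start to 50 after it. Capitals mark matches on either strand to a loose form of the NF-kB site, GGG and CC with any 5 bases between them, with overlapping matches merged. The regions are chr1:12166741-12167040 on the plus strand for TNFRSF1B, and chr1:7940790-7941089 and chr1:6466124-6466423 on the minus strand for TNFRSF9 and TNFRSF25.
TNFRSF1B: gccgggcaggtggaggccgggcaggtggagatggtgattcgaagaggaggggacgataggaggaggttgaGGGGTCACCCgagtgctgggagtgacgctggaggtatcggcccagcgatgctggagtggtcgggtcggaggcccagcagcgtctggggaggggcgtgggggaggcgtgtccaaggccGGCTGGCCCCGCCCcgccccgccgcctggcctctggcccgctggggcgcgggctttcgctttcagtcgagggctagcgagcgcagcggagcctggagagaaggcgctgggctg
TNFRSF9: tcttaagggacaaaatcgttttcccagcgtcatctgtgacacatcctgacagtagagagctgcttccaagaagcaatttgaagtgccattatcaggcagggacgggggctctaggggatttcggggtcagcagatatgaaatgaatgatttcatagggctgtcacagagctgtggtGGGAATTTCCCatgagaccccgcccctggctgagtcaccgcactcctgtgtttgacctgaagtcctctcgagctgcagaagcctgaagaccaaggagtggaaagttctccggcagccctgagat
TNFRSF25: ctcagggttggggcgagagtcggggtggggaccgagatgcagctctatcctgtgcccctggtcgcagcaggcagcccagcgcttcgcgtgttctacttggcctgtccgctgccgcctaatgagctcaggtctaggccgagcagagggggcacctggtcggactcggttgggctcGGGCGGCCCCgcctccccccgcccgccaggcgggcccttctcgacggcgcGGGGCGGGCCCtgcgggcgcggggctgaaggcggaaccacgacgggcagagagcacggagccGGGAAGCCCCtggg

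The TNFRSF9 promoter held GGGAATTTCC, starting 74 bases before the annotated start. These exact letters, looked up after the match had been seen, occurred on either strand in 51 of 35116 promoters (0.145%), and TNFRSF9 was the only member among them. The loose form was common: 58.7% of all promoters of this length held it, as did all 7 member promoters in the table. It matched at 3 positions in TNFRSF1B, 2 in TNFRSF9 and 4 in TNFRSF25. Among members that did not pass, it matched at 7 positions in TNFRSF14 and at 1 each in TNFRSF8, TNFRSF18 and CD27. The TNFRSF1B and TNFRSF25 promoters were rich in G and C, at 72.0% and 73.3% against a median of 58.7% over all promoters, and the TNFRSF9 promoter had 52.3%. A match to these letters is a description and does not show binding.

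The members spanned a wide range of levels. TNFRSF9 (4-1BB), a receptor induced on activated T cells, had a mean normalized count of 3190 in the authors' deposited table, above 95.7% of the genes with a mean over 0. TNFRSF1B, the TNF receptor that carries no death domain, followed at 1346. CD40LG, which helper T cells use to license B cells and dendritic cells, was at 449, TNFRSF8 (CD30), found on activated lymphocytes, at 327, and CD70, the ligand of CD27, at 272 in the authors' deposited table. TNFRSF25 (DR3), a death-domain receptor that costimulates T cells, had a mean of 137.

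Low levels were found for 4 members. CD27, a receptor of naive and memory T cells, had a mean normalized count of 35.2 in the authors' deposited table, TNFRSF18 (GITR) 35.2 and TNFRSF4 (OX40), both receptors of activated and regulatory T cells, 33.2. TNFRSF14 (HVEM), which binds TNFSF14 and LTA as well as the immunoglobulin-family receptors BTLA and CD160, had a mean of 1.25 in the authors' deposited table. A single read in a single library adds between 0.0586 and 0.147 to such a mean. TNFRSF14 therefore rested on few reads, and lay under the lowest mean that had an adjusted p, 2.22.

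Levels of different genes were compared per kilobase of annotated exon. On this scale the mean normalized count was 504 for TNFRSF9, 357 for TNFRSF1B, 247 for CD40LG, 178 for CD70 and 87.5 for TNFRSF8. It was 32.0 for TNFRSF25, 25.7 for TNFRSF18, 24.9 for CD27, 19.3 for TNFRSF4 and 0.201 for TNFRSF14. TNFRSF9 stood above 92.1% of the tested protein-coding genes per kilobase and TNFRSF4 above 37.3%. With the length of the longest coding transcript in place of all exons, TNFRSF25 moved to 77.4 and CD70 to 298, which put CD70 above CD40LG (247). TNFRSF4 moved to 31.1, above TNFRSF18 (29.8) and CD27 (26.3). No spread over samples is known, so it cannot be said which neighbours in this order differ beyond it.

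**Figure D1:**
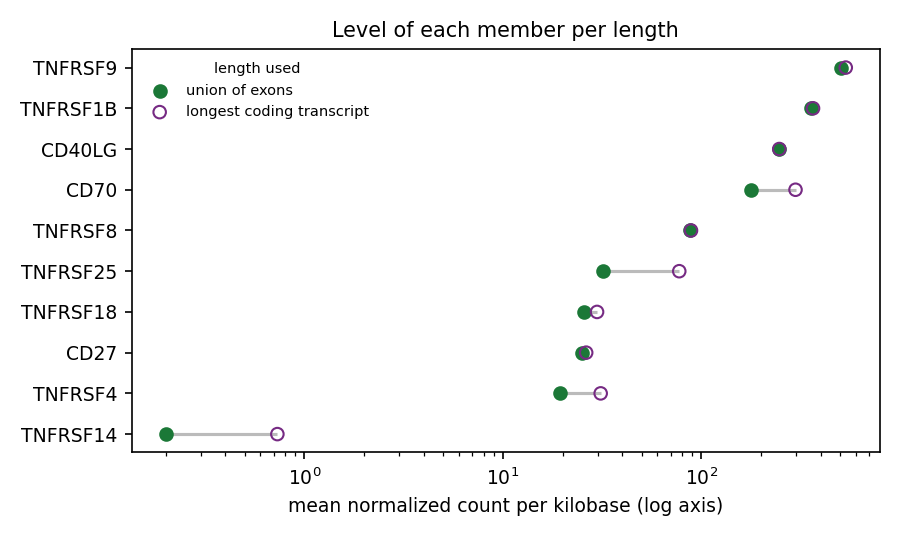
Mean normalized count per kilobase (log axis) of each of the 10 members, with length as the union of annotated exons (filled) or as the longest coding transcript (open); lines join both values of a gene. TNFRSF9 is highest at 504 and TNFRSF14 lowest at 0.201 per kilobase of exon, and the values move by over 1.5 times with the length used for TNFRSF14, TNFRSF25, CD70 and TNFRSF4.

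Between the groups, TNFRSF1B, TNFRSF9, CD40LG and TNFRSF25 were lower in the numerator group, and no tested member was higher. In the authors' deposited table, 4 of the 9 tested members passed an adjusted p of 0.05, all lower, where 29.5% of all tested genes passed, 14.8% lower and 14.7% higher. At an unadjusted p under 0.05 the counts were 5 lower and 0 higher, beside 2582 lower and 2604 higher of the 13957 tested genes. The median log2 fold change of the 9 was -0.42, beside 0 over all tested genes, and 8 of the 9 changes were below 0, beside 6976 of 13957 over all tested genes. In RNA from whole cultures, fewer cells of a type and less RNA per cell cannot be told apart.

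TNFRSF1B, a receptor for TNF that is prominent on activated and regulatory T cells, had a log2 change of -1.09 (SE 0.11, adjusted p = 1.9e-20) per the authors' deposited table. This was 0.470 times the level of the denominator group. CD40LG had a log2 change of -1.24 (SE 0.13, adjusted p = 3.94e-20) per the authors' deposited table, or 0.422 times. Both stayed past the threshold when tested against a change of 1.5-fold (range of adjusted p over 7 alternatives 1.14e-20 to 0.000149 for TNFRSF1B and 2.35e-20 to 8.1e-05 for CD40LG).

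TNFRSF9 and TNFRSF25 passed with less margin. In the authors' deposited table TNFRSF9 had a log2 change of -0.61 (SE 0.12, adjusted p = 1.22e-06), or 0.653 times the denominator level, and TNFRSF25 one of -1.36 (SE 0.28, adjusted p = 8.56e-06), or 0.391 times. Tested against a 1.5-fold change, TNFRSF9 had an adjusted p of 1 and TNFRSF25 of 0.0508. With errors widened by the spread of all statistics, a factor of 2.03, the adjusted p-values were 0.0903 and 0.137. The 95% interval of TNFRSF9, -0.84 to -0.39, lay wholly above that of TNFRSF1B, -1.31 to -0.87; the difference itself was not tested.

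TNFRSF25 also shares sequence with its neighbours. Of its 4283 exonic bases, 487 (11.4%) are exonic in PLEKHG5, on the same strand, or in ESPN, on the opposite strand (GENCODE 29). PLEKHG5 was lower as well, at a log2 change of -1.49 (SE 0.54, adjusted p = 0.0240) with a mean normalized count of 14.8 in the authors' deposited table, and ESPN was at -2.28 (SE 1.09, adjusted p = 0.104) with a mean of 5.29. The mean of TNFRSF25 was 137, and these means do not show how many reads of the shared bases went to each gene. Whether shared reads moved the value of TNFRSF25 was not tested.

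**Figure D2:**
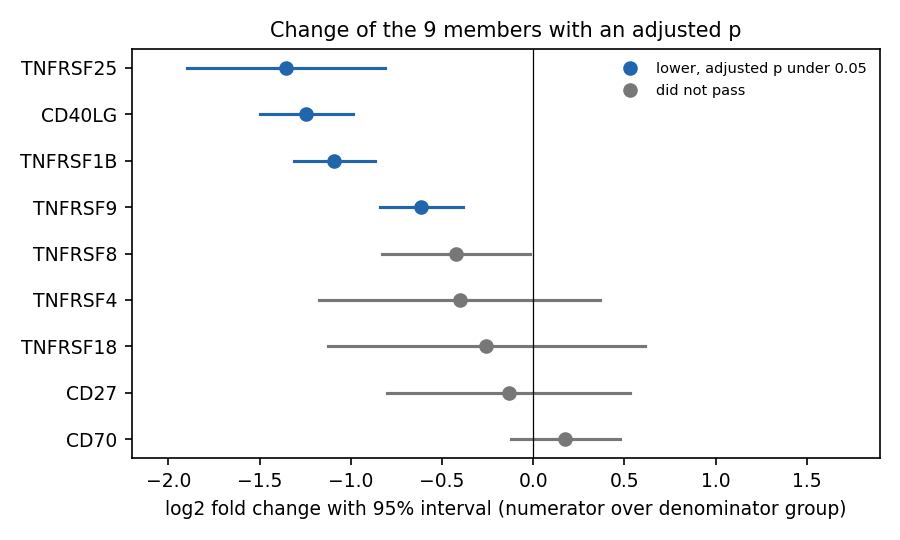
Log2 fold change of the 9 members with an adjusted p, with 95% intervals from the deposited standard errors; blue members passed an adjusted p of 0.05. The 4 that passed lie below 0, the interval of TNFRSF8 ends just under 0, and those of TNFRSF4, TNFRSF18, CD27 and CD70 cross it.

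The other 5 tested members did not pass. TNFRSF8 came nearest, at a log2 change of -0.42 (SE 0.21, p = 0.0400, adjusted p = 0.113) per the authors' deposited table. CD70 had the only change above 0, 0.18 (SE 0.15, adjusted p = 0.440), with a 95% interval of -0.12 to 0.47 in the authors' deposited table. For CD70 an estimated change of 0.37 in either direction would have passed.

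The remaining 3 had low means and wide errors. The log2 fold changes in the authors' deposited table were -0.40 (SE 0.39, adjusted p = 0.511) for TNFRSF4, -0.26 (SE 0.44, adjusted p = 0.748) for TNFRSF18 and -0.13 (SE 0.34, adjusted p = 0.838) for CD27. At these errors, estimated changes smaller than 0.96 for TNFRSF4, 1.08 for TNFRSF18 and 0.83 for CD27 could not have passed. An estimate of the size seen in TNFRSF9 would thus not have passed in any of the 3. TNFRSF14 had a log2 change of -0.19 with an error of 2.94 in the authors' deposited table, which leaves an interval of -5.96 to 5.58 and says nothing of its direction.

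The errors of 4 members were larger than the median error at their level. The SE of TNFRSF9 was 0.12, where the median over 896 tested genes with a mean within 1.5-fold of its own was 0.066, and that of TNFRSF1B was 0.11 against 0.086. TNFRSF8 had 0.21 against 0.16 and TNFRSF25 0.28 against 0.25. CD40LG (0.13 against 0.14) and CD70 (0.15 against 0.18) were slightly more precise than such genes, and so were CD27, TNFRSF4 and TNFRSF18.

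**Figure D3:**
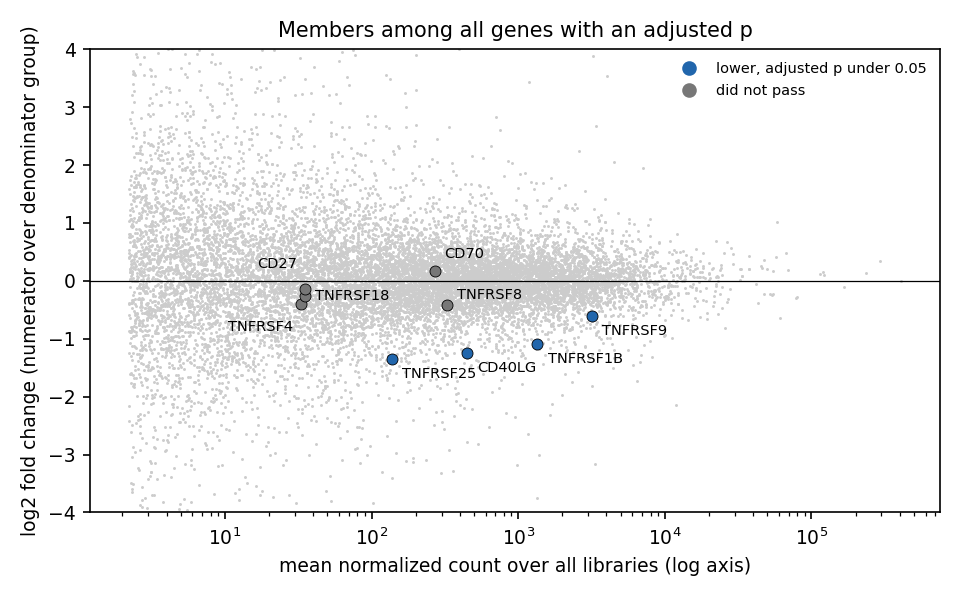
Mean normalized count (log axis) against log2 fold change for genes with an adjusted p; grey dots are single genes, 13794 of which lie within the axis limits of -4 and 4 and 163 outside, and large points are members, blue where they passed an adjusted p of 0.05. The 4 blue members sit at or below -0.61 at means of 137 to 3190, whereas TNFRSF4, TNFRSF18 and CD27 lie close together at means of 33.2 to 35.2.

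Of 9 receptor and ligand pairs, 5 had an adjusted p for both genes. In 3 of these the ligand was higher in the numerator group while the receptor had a change below 0. Only TNFRSF25 of these 3 receptors passed, and 6976 of the 13957 tested genes had a change below 0. With widened errors TNFSF4 kept its call (adjusted p = 0.000333), while TNFSF8 (0.306) and TNFSF15 (0.773) lost theirs. TNFSF4, the ligand of TNFRSF4, was higher at a log2 change of 4.06 (SE 0.46, adjusted p = 1.89e-17) with a mean normalized count of 44.5 in the authors' deposited table, beside the -0.40 of its receptor, which did not pass. TNFSF8, the ligand of TNFRSF8, was higher at 0.40 (SE 0.10, adjusted p = 0.000392) per the authors' deposited table, beside -0.42 for the receptor. These differences between ligand and receptor were not tested.

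TNFRSF25 and TNFSF15, its ligand, passed in opposite directions. TNFSF15 had a log2 change of 5.35 (SE 2.18, adjusted p = 0.0481) per the authors' deposited table, but its mean normalized count was 2.98, and without the filter on low means its adjusted p was 0.0726. CD40LG was lower while CD40, its receptor on antigen-presenting cells, had a mean of 5.33 and a change of -0.88 (SE 0.84, adjusted p = 0.495) per the authors' deposited table. Neither CD27 nor CD70 passed. TNF, LTA and TNFSF9, the ligand of TNFRSF9, were not analysed here, and TNFSF18, the ligand of TNFRSF18, was listed at 0.

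**Figure D4:**
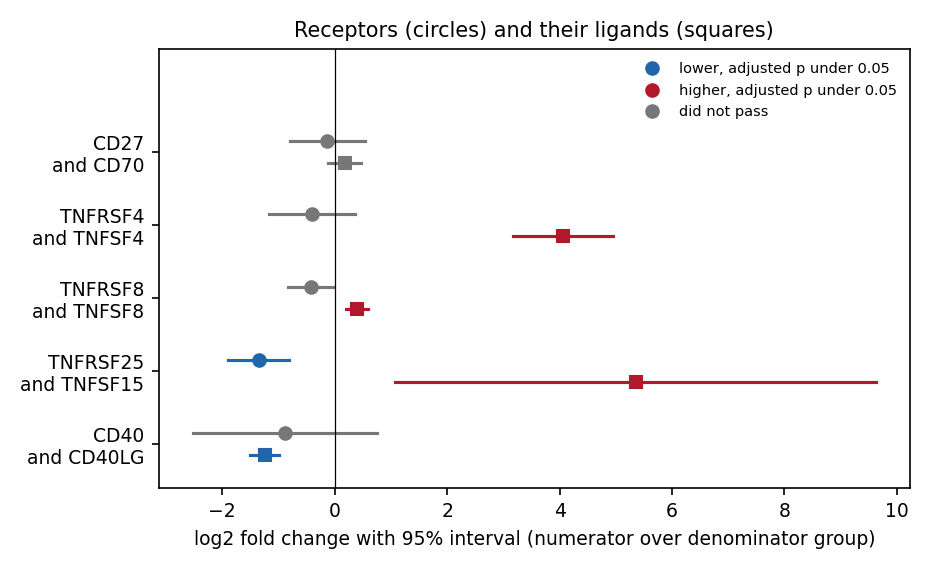
Log2 fold change with 95% interval of the receptor (circle) and the ligand (square) in the 5 pairs with an adjusted p for both; blue is lower and red higher at an adjusted p of 0.05. TNFSF4, TNFSF8 and TNFSF15 lie above 0, with a wide interval for TNFSF15 at its mean of 2.98. The changes of their receptors lie below 0, but only TNFRSF25 passed.

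The partners of TNFRSF14, whose own mean was 1.25, differed in level and in change. TNFSF14 (LIGHT) had a mean normalized count of 1228 and a log2 change of 0.08 (SE 0.07, adjusted p = 0.485) per the authors' deposited table. CD160, a receptor of cytotoxic lymphocytes, was higher at 3.23 (SE 0.34, adjusted p = 2.59e-19) with a mean of 57.2, and BTLA, an inhibitory receptor, had -0.09 (SE 1.17, adjusted p = 0.973) with a mean of 6.19 in the authors' deposited table. LTB, which pairs with LTA to bind LTBR rather than TNFRSF14, was lower at -2.72 (SE 0.51, adjusted p = 1.21e-06) with a mean of 61.1. Its call was lost with widened errors (adjusted p = 0.0903), and LTBR had a mean of 0.247 and no adjusted p. Of the 6219 exonic bases of TNFRSF14, 831 (13.4%) overlap TNFRSF14-AS1 on the other strand, and whether this lowered its count was not tested.

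The rest of the family moved both ways, as did the tested genes as a whole (14.7% higher and 14.8% lower). Of 11 other tested TNF receptors, 2 were higher, 2 lower and 7 did not pass, with a median log2 fold change of -0.17. The death receptors for TRAIL were split: TNFRSF10B was higher at 1.14 (SE 0.13, adjusted p = 1.47e-16) and TNFRSF10A lower at -2.23 (SE 0.33, adjusted p = 1.98e-10) per the authors' deposited table. TNFRSF13C, the BAFF receptor, was at 1.10 (SE 0.28) and TNFRSF11A (RANK) at -0.17 (SE 0.06) per the authors' deposited table. TNFRSF1A, the death-domain receptor that shares TNF with TNFRSF1B, was at -0.28 (SE 0.12, adjusted p = 0.0631) and did not pass. Of 10 other tested ligands, 3 were higher and 2 lower, with a median of 0.27; the 2 were LTB and TNFSF10 (TRAIL), at -0.36 (SE 0.05) per the authors' deposited table. Against a 1.5-fold change, and likewise with widened errors, 1 receptor and 1 ligand of these lists were higher and 1 of each lower.

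Downstream, most adaptors and kinases did not pass, like most tested genes. Of 25 tested, 3 were higher, 3 lower and 19 did not pass, with a median log2 fold change of -0.13. Over all tested genes, 14.7% were higher and 14.8% lower. TRAF3IP2, an adaptor of the interleukin-17 receptor, was at 1.65 (SE 0.11) and TRAF4 at 0.73 (SE 0.23), while RIPK1, the kinase of the TNF receptor complex, was at -0.75 (SE 0.23) per the authors' deposited table. TRAF5, used by CD27 and TNFRSF4, was at 0.45 (SE 0.16), and TRAF3, which restrains the noncanonical NF-kB pathway, at -0.41 (SE 0.04) per the authors' deposited table. TRAF1, a partner of TNFRSF9, was abundant at a mean normalized count of 3136 and had -0.13 (SE 0.34, adjusted p = 0.846). At this wide error an estimated change of TRAF1 smaller than 0.82 could not have passed. TRAF2 had a mean of 23.6 and a change of -0.73 (SE 0.69, adjusted p = 0.493) per the authors' deposited table. Against a 1.5-fold change 1 gene of this list was higher and 0 lower, and with widened errors 1 was higher and 1 lower.

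Among 15 NF-kB subunits and inhibitors, 2 were higher, 2 lower and 11 did not pass, with a median log2 fold change of -0.02. Over all tested genes, 14.7% were higher and 14.8% lower. NFKB1, the precursor of the p50 subunit, was at 0.70 (SE 0.10, adjusted p = 1.09e-10) per the authors' deposited table. The inhibitor NFKBIA was at -0.65 (SE 0.07) and NFKBIZ, a nuclear co-factor, at -0.71 (SE 0.14), both lower, and TNIP1, which binds the inhibitor TNFAIP3, was higher at 0.31 (SE 0.05) per the authors' deposited table. NFKB2 and RELB, the subunits of the noncanonical pathway, were at 0.05 (SE 0.12, adjusted p = 0.807) and -2.26 (SE 1.15, adjusted p = 0.135). At its wide error an estimated change of RELB smaller than 2.82 could not have passed. None of the 15 passed against a 1.5-fold change.

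**Figure D5:**
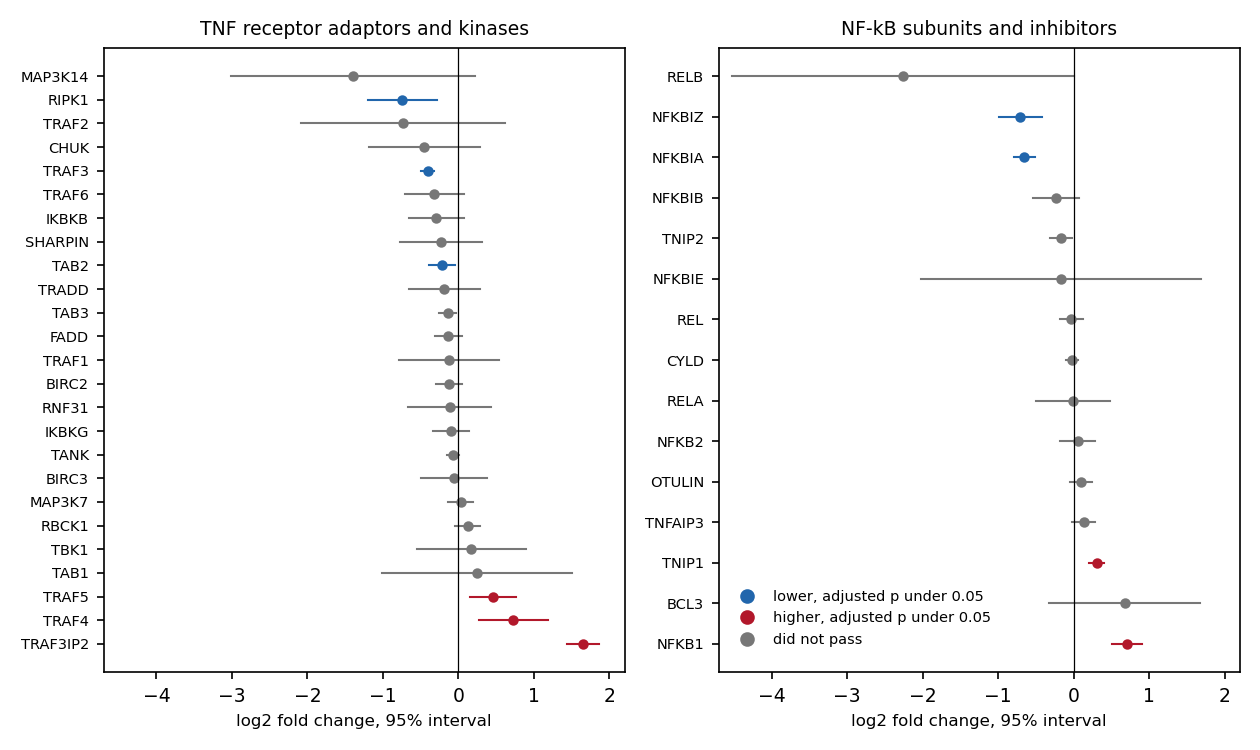
Log2 fold change with 95% interval of the 25 adaptors and kinases (left) and the 15 NF-kB subunits and inhibitors (right), blue where lower and red where higher at an adjusted p of 0.05. Calls lie on both sides of 0 in each list, 3 and 3 on the left and 2 and 2 on the right.

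Most of the T-cell markers were lower in the numerator group too, where 14.8% of all tested genes were lower and 14.7% higher. In the authors' deposited table, 7 of 10 tested T-cell markers were lower and 0 higher (1 higher and 8 lower at an unadjusted p under 0.05), with a median log2 fold change of -0.46 and means from 123 (CD7) to 27074 (CD8A). At that unadjusted p, 2604 of all 13957 tested genes were higher and 2582 lower. CD4 and CD5, at means of 1.83 and 1.87, had no adjusted p. The 3 tested genes of the regulatory T-cell list, IL2RA, IKZF2 and IKZF4, were lower as well, with a median of -0.62, while FOXP3 and CTLA4 were listed at 0. The means of the T-cell list summed to 65541 over all libraries, and no sum per group can be given. Against a 1.5-fold change 1 of the 10 T-cell markers was lower and 0 higher, beside 370 lower and 370 higher of 13957 tested genes. With widened errors 5 of the 10 were lower and 0 higher, beside 596 lower and 600 higher over all tested genes. Of 4 tested natural killer markers 2 were lower, NCAM1 at -1.61 (SE 0.10) and NKG7 at -0.89 (SE 0.08) per the authors' deposited table, and 0 were higher (3 lower and 0 higher at an unadjusted p under 0.05). Of 8 tested myeloid markers 2 were higher, ITGAX at 2.61 (SE 0.18) and CSF1R at 4.20 (SE 0.76) per the authors' deposited table, and 2 lower, FCGR3A and LYZ. The B-cell list had 1 of 3 tested markers higher (BLK) and 1 lower (CD79B), and 2 of 7 tested HEK293 markers were lower (VIM and L1CAM). The part of these markers in the falls of TNFRSF1B, TNFRSF9, CD40LG and TNFRSF25 was not tested.

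By position, 7 of the 10 members lie on chromosome 1, between positions 1203508 and 12209228 (GRCh38, GENCODE 29), which the choice of members did not use. TNFRSF18 and TNFRSF4 are 4.63 kilobases apart, and neither passed. TNFRSF8 (12063377 to 12144207) and TNFRSF1B (12167003 to 12209228) are 22.8 kilobases apart on the plus strand, and only TNFRSF1B passed. TNFRSF9 (7915894 to 7943165) and TNFRSF25 (6460786 to 6466195) are on the minus strand. CD27 is on chromosome 12 (6444867 to 6451718), CD70 on chromosome 19 (6583183 to 6604103) and CD40LG on chromosome X (136648193 to 136660390).

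Genes around the members went both ways, as did the tested genes as a whole. Among 106 other tested genes of that span of chromosome 1, 18 were lower (17.0%) and 10 higher, with a median log2 fold change of -0.19. Within 100 kilobases of any member lay 36 other tested genes, 3 of them lower and 5 higher. In either direction, 26.4% of the 106 and 22.2% of the 36 passed, beside 29.5% of all tested genes. Next to TNFRSF1B, VPS13D was at -0.01 (SE 0.14, adjusted p = 0.969) per the authors' deposited table. Around CD27, NCAPD2, MRPL51 and GAPDH were higher and IFFO1 lower, while CD27 itself, 39.1% of whose exonic bases overlap CD27-AS1 or TAPBPL, did not pass. With a single contrast there is no pattern over samples by which to name genes that behave like a member.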

How the data were processed

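RNA of 6 labelled samples, 3 per group, was sequenced from SMARTer libraries, per the labels' protocols. Per the submitters' processing notes, STAR, Salmon and hg38 are listed, without role or version. The deposited table has DESeq2's column names per the file headers. It gives the authors' mean normalized count (a signal: counts divided by size factors), a deposited log2 fold change with its standard error, a deposited Wald statistic (a score) and the authors' p-value and adjusted p-value. Benjamini-Hochberg adjustment of the p-values of 13957 genes gave the deposited adjusted p to within 3.7e-07. Depth per library is unknown.

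Members and lists were chosen with earlier results of these data known. Identifiers without version were matched to symbols (33483 of 33644) and to GENCODE 29 on GRCh38 (33582, and 9 of 10 members in the same version). The 95% intervals are the change with its normal interval. The smallest estimated change that could pass is the error times 2.44, the smallest absolute statistic that passed. Alternatives were a test against 1.5-fold, errors widened 2.03 times, no filter, a minimum mean of 72.0, protein-coding genes only, a threshold of 0.01 and centring on the median change; for levels, the longest coding transcript. Calculations were tested on simulated data (Python 3.11.15, numpy 2.4.6, pandas 2.3.3, scipy 1.17.1, matplotlib 3.10.9). All members are named. So are up to 3 genes per pathway list with the largest changes among those past the threshold at means of 72.0 or more. The same holds for every partner of a member, for LTB and for the highest gene of each marker list. Others, such as TNFRSF13C, TNFRSF1A, TRAF1, TRAF2, TRAF3, TRAF5, TNIP1, NFKB2, RELB, the neighbouring genes and the further markers, were chosen after their values were seen.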

Additional observations from a re-analysis of the deposited data

How the results depend on the processing

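The alternatives reuse the deposited changes, apart from centring, so they bear on the calls and not on the directions. Against a 1.5-fold change, 2 members were lower, TNFRSF1B and CD40LG, instead of 4, and over all tested genes 370 were higher and 370 lower instead of 2054 and 2066. With widened errors 2 members were lower, again TNFRSF1B and CD40LG, and over all genes 600 were higher and 596 lower. The other 5 alternatives left 4 members lower and 0 higher. Centring moved changes by 0.011. Among partners, TNFSF8 lost its call against a 1.5-fold change (adjusted p = 1) and with widened errors (0.306), and TNFSF15 under 4 alternatives. No paired analysis was possible because the table holds no values per sample, for which reason leaving out replicates was not run either. The deposited errors limit calls to estimated changes of at least 0.96 for TNFRSF4, 1.08 for TNFRSF18 and 0.83 for CD27, and TNFRSF14 has no adjusted p. What depth contributes is not known, since the depth of single libraries is not.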
